A study of Mus musculus with 4 samples.

Results

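Endothelial and blood lineage genes were followed together with *Srgn*, the gene of the granule proteoglycan serglycin, in RNA-seq of motor neurons (MNs). The set held 10 genes, *Srgn*, *Pecam1*, *Kdr*, *Flt1*, *Cdh5*, *Tek*, *Tie1*, *Etv2*, *Cd34* and *Emcn*, of the 23420 gene symbols in the count files, and every one of the 10 was found by its symbol. *Srgn* was chosen by its measured drop between the same libraries, and the other 9 genes were taken as known markers with earlier results of these libraries in view. The differences of the 10 genes are therefore given as a description, with standard errors (SE) from the fit but no p values. The groups were WT and *Patz1* KO (genotype *Patz1* -/-), both of the E14 line of mouse embryonic stem cells (mESCs), with 2 libraries each. Both genotypes were made into embryoid bodies and, on day 2, patterned to a cervical MN fate with 1 µM all-trans-retinoic acid and 0.5 µM smoothened agonist; the day of harvest is not stated in the labels. The KO cells came from single clones edited with Cas9, the labels do not say which clone gave each library, and the methods describe replicates as independent differentiations.

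The wall of a blood vessel is lined by endothelial cells, which arise from mesoderm together with the first blood cells. The ETS factor ETV2 switches on this program, VEGF acts through the receptors KDR (VEGFR2) and FLT1 (VEGFR1), and angiopoietins act through TEK (TIE2) with its relative TIE1. VE-cadherin (CDH5) and PECAM1 hold neighbouring endothelial cells together, while CD34 and endomucin (EMCN) are sialomucins of their surface. Serglycin carries long glycosaminoglycan chains and packs proteases into the granules of mast cells and other blood cells; endothelial cells and some embryonic cells make it as well. Neither vessels nor blood are made by the neural tube itself, so these genes are read mainly as marks of cells other than neurons.

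The total count per library went from 14769104 to 15728158 in WT and from 17402342 to 23881522 in *Patz1* KO, and levels are given as CPM (counts scaled to the size of the library) on libraries scaled by the TMM method. *Patz1* itself had 91.4 and 94.2 CPM in WT against 47.6 and 42.5 CPM in the KO libraries. Its log2 fold change was -1.04 (SE 0.095, adjusted p = 1.09e-07 by edgeR's quasi-likelihood test), so reads assigned to *Patz1* were still counted in the KO. Exons of *Patz1* overlap *Gm11944* on the same strand and *Gm12592* on the other, and reads of these genes cannot be separated here. The paper reports genotyping and sequencing of the edited lines and loss of PATZ1 protein by western blot in *Patz1* KO mESCs. Read counts do not measure that protein, and the source of the remaining reads was not tested. The titles of the libraries speak of ESCs and the other labels of MNs. A list of 10 MN genes, among them *Mnx1*, *Chat* and *Tubb3*, summed to 2360 to 2620 CPM in WT and 3260 to 3790 CPM in *Patz1* KO, of which the pan-neuronal *Tubb3* alone made 1570 to 2640 CPM. *Mnx1*, a defining MN gene, had 51.9 and 50.6 CPM in WT and 98.2 and 90.9 CPM in *Patz1* KO. A list of 10 pluripotency genes summed to no more than 11.1 CPM in any library. The cultures were not sorted, so in these bulk samples fewer cells of a type and less RNA per cell cannot be told apart.

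The promoters of *Srgn* and of the VEGF receptor pair *Kdr* and *Flt1* are shown because *Srgn* had the widest difference in the set and the receptor pair carries the VEGF signal that defines the lineage. They come from RefSeq on GRCm38.p6, the assembly behind mm10, which the counts use, and each run goes from 250 bases before an annotated start to 50 bases after it, 5′ to 3′ on the gene's minus strand. Capitals mark GGAA, the core that ETS factors read, on either strand (TTCC on the other). *Srgn* has 2 annotated starts, chr10:62527396-62527695 upstream and chr10:62507708-62508007 within the gene; *Kdr* lies at chr5:75978406-75978705 and *Flt1* at chr5:147725962-147726261.
Srgn, upstream start: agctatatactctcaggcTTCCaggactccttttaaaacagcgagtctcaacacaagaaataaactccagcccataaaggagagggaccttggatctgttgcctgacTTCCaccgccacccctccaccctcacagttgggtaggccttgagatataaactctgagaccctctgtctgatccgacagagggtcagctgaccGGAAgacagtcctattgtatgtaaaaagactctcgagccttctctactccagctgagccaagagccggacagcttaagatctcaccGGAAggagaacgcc
Srgn, inner start: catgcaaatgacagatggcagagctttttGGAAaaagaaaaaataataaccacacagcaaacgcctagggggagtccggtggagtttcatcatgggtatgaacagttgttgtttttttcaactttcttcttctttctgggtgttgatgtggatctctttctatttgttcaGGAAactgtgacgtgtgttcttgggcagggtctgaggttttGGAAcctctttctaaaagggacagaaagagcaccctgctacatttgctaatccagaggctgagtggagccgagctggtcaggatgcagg
Kdr: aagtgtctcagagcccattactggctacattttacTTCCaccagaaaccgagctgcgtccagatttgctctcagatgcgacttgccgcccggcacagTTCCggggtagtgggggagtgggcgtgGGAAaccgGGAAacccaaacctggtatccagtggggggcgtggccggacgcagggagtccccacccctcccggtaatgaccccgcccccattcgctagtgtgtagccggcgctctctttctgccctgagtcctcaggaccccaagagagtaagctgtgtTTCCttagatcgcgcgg
Flt1: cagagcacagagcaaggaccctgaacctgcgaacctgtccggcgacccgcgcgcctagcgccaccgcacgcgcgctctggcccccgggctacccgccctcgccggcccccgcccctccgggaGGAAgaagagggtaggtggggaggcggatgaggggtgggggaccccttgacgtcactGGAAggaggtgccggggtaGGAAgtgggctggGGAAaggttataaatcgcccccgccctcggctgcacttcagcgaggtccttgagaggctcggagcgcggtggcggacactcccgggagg

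The table held 9 promoters for 8 of the 10 genes, that is for *Cd34*, *Emcn*, *Tek*, *Tie1*, *Kdr*, *Flt1*, *Etv2* and *Srgn*. GGAA was present in all 9, but 96.0% of the 32851 promoters in the table hold it too. The 9 promoters had a median of 5 such cores against 3 over all promoters, with 11 in *Etv2*, 9 in *Tie1*, 4 and 3 in the *Srgn* promoters and 2 in *Tek*. The longer ETS forms CCGGAAGT and ACCGGAAGT, the second of which contains the first, were in 0 of the 9, against 3.89% and 1.10% of all promoters. The GATA form AGATAA was in *Tek* alone among the 9 (11.2% of all promoters), and the forkhead form TGTTTAC was in 0 (3.65%). Of the G-rich forms of the kind PATZ1 and MAZ are known to bind, GGGAGGGG was in *Kdr* and *Cd34* (12.2% of all promoters) and GGGGAGGG in 0 (10.8%). These are matches of letters on both strands in a window of 300 bases and say nothing of binding.

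*Srgn* was by far the most abundant gene of the set in WT MNs and stood at a few percent of that level in *Patz1* KO MNs. It lies on chromosome 10 of mm10 from 62493833 to 62527451 on the minus strand, and its exons overlap no other annotated gene. In WT it was counted 290 and 336 times, or 19.5 and 21.1 CPM. In *Patz1* KO it was counted 14 and 19 times, or 0.577 and 1.13 CPM. Both KO libraries thus stood far below both WT libraries, at 4.21% of the WT mean, a log2 fold change of -4.64 (SE 0.24). Without 1 library at a time the value moved over -5.11 to -4.15.

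**Figure D1:**
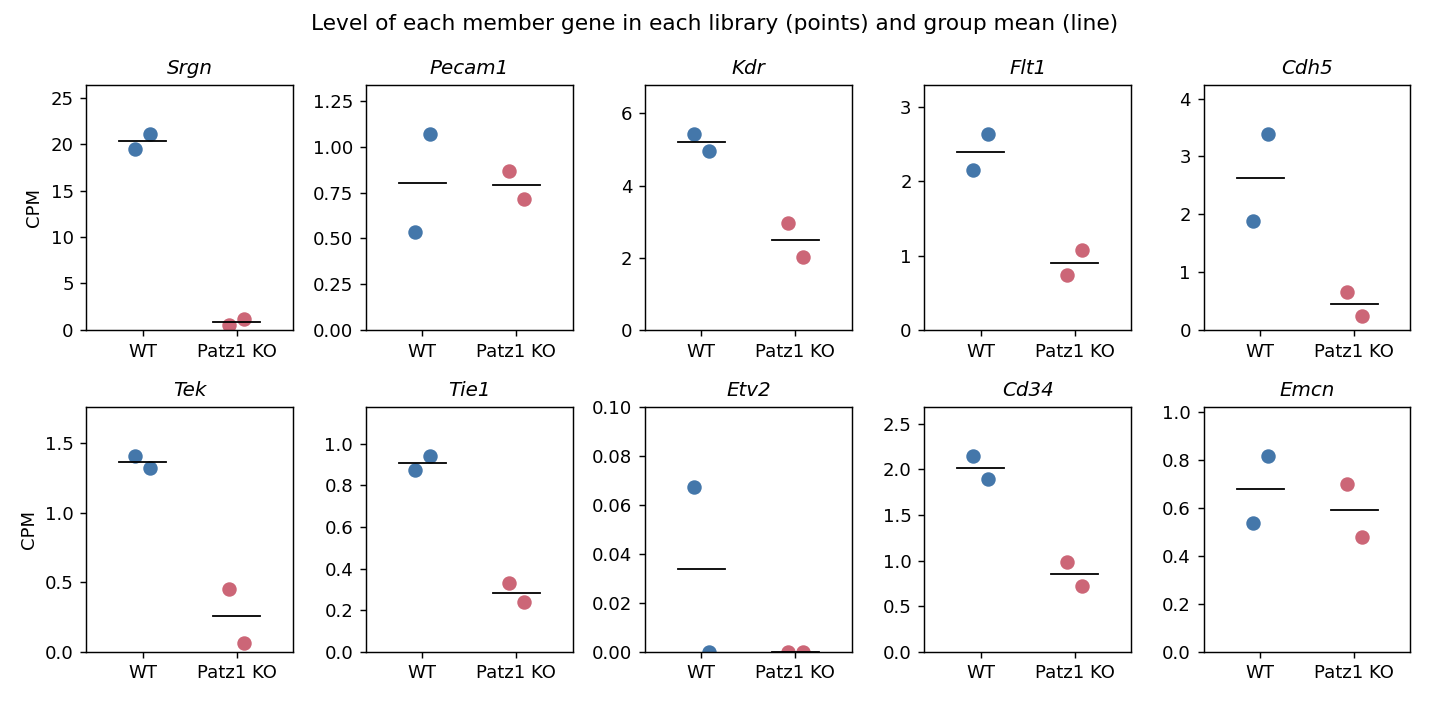
Level of each of the 10 genes in CPM (y axis, a separate linear scale from 0 for each gene) in the 2 WT and 2 *Patz1* KO libraries (points), with the group mean as a line. *Srgn* drops from 19.5 and 21.1 to 0.577 and 1.13 CPM, the *Kdr*, *Flt1*, *Cdh5*, *Tek*, *Tie1* and *Cd34* groups do not overlap, and the *Pecam1* and *Emcn* groups do.

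The VEGF receptors were lower in *Patz1* KO MNs but still counted in both KO libraries. *Kdr*, the main signalling receptor for VEGF (chromosome 5, 75932827 to 75978458), had 81 and 79 counts in WT against 72 and 34 in the KO. After scaling this was 5.43 and 4.97 CPM against 2.97 and 2.03 CPM, a log2 fold change of -1.03 (SE 0.25). The first KO library, whose 72 counts look close to WT, had the highest total count of the 4. *Flt1*, which binds VEGF tightly and tempers its action (chromosome 5, 147561604 to 147726011), had 32 and 42 counts in WT against 18 and 18 in the KO, or 2.15 and 2.64 against 0.742 and 1.07 CPM. The log2 fold change of *Flt1* was -1.43 (SE 0.36). Neither receptor's KO libraries reached the lower of its WT libraries.

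The angiopoietin receptors were counted in small numbers, and their KO values rest on few reads. *Tek* (chromosome 4, 94739289 to 94874976) had 21 and 21 counts in WT against 11 and 1 in the KO, or 1.41 and 1.32 against 0.453 and 0.0596 CPM. *Tie1* (chromosome 4, 118471191 to 118490061) had 13 and 15 counts in WT against 8 and 4 in the KO, or 0.872 and 0.943 against 0.330 and 0.238 CPM. In both genes the KO libraries lay below the WT libraries. The log2 fold change was -2.21 (SE 0.55) for *Tek* and -1.62 (SE 0.52) for *Tie1*. The KO libraries of *Tek* differed most from each other, and without *Patz1* KO replicate 1 the fitted log2 fold change of *Tek* was -4.34, a value that rests on 1 KO count. Without *Patz1* KO replicate 2 it was -1.57.

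Of the 4 junction and surface genes, *Cdh5* and *Cd34* were lower in both KO libraries than in either WT library. *Cdh5*, the cadherin of endothelial junctions (chromosome 8, 104101625 to 104144511), had 28 and 54 counts in WT against 16 and 4 in the KO, or 1.88 and 3.39 against 0.660 and 0.238 CPM. Its log2 fold change was -2.44 (SE 0.45), next to *Srgn* in size, and went from -3.43 (without *Patz1* KO replicate 1) to -1.96 (without WT replicate 2). *Cd34*, a sialomucin of endothelial cells and blood progenitors (chromosome 1, 194938819 to 194961279), had 32 and 30 counts in WT against 24 and 12 in the KO, or 2.15 and 1.89 against 0.989 and 0.715 CPM. The log2 fold change of *Cd34* was -1.20 (SE 0.36). Exons of *Cd34* overlap the antisense gene *Gm16897*, and the strand setting of the counting is not given in the sources used here, so reads of the pair cannot be separated.

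*Pecam1* and *Emcn*, the other two, showed no detectable difference. *Pecam1*, an adhesion molecule that mouse pluripotent cells and platelets carry besides endothelium (chromosome 11, 106654217 to 106750628), had 8 and 17 counts in WT against 21 and 12 in the KO, or 0.537 and 1.07 against 0.866 and 0.715 CPM. *Emcn*, the venous and capillary sialomucin endomucin (chromosome 3, 137341067 to 137432185), had 8 and 13 counts in WT against 17 and 8 in the KO, or 0.537 and 0.817 against 0.701 and 0.477 CPM. The WT and KO libraries overlapped in both genes. The log2 fold changes were -0.02 (SE 0.46) for *Pecam1* and -0.17 (SE 0.49) for *Emcn*, and both changed sign when single libraries were left out, over -0.42 to 0.57 and -0.50 to 0.17. *Pecam1* reached 0.57 without WT replicate 2. With 8 to 21 counts per library, no difference was detectable in either gene at this depth.

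*Etv2*, the ETS factor that starts the lineage (chromosome 7, 30633616 to 30635852), had 1 and 0 counts in WT against 0 and 0 in the KO. It was too low to be tested. A library with 0 counts allows up to 3 counts, or 0.124 to 0.189 CPM over WT replicate 2 and the KO libraries, so no difference was detectable and none is given. This limit covers counting error only, since the reads carry no molecular identifiers.

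Counted over the set, 9 of the 10 genes passed the filter on low counts, and *Tek* and *Tie1* did so through their WT libraries only. In 7 of these 9 both KO libraries lay under both WT libraries, and in 2 the groups overlapped. Over all 14269 genes tested the KO libraries lay under the WT libraries in 37.2% and over them in 37.0%. Nothing is read from these counts, since the genes were chosen on this comparison. The median log2 fold change of the 9 genes was -1.43, and -1.32 over the 8 without *Srgn*, beside -0.00137 over all genes tested.

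**Figure D2:**
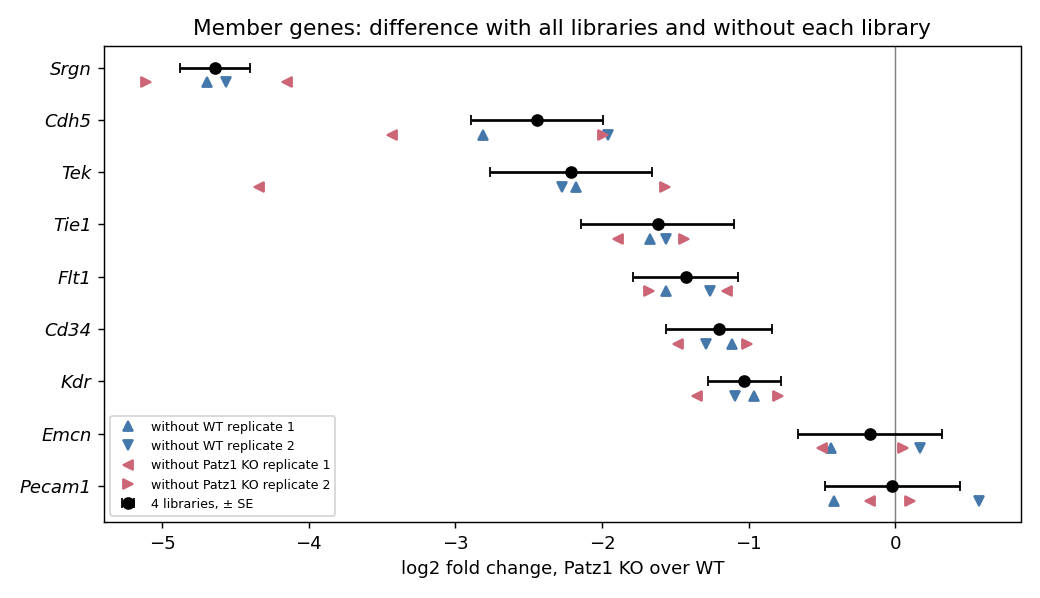
Log2 fold change of *Patz1* KO over WT (x axis) for the 9 genes that passed the filter, from all 4 libraries with its SE (black) and without each library in turn (triangles). *Srgn* lies at -4.64, 6 genes lie between -2.44 and -1.03, and *Emcn* and *Pecam1* sit at -0.17 and -0.02 with triangles on both sides of 0.

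Per length of exon the set was a weak signal in these cultures, with *Srgn* as the exception. In WT MNs *Srgn* had a level of 9.24 RPKM (CPM per kilobase of annotated exon). The next levels were 0.627 RPKM for *Cdh5* and 0.576 for *Kdr*, whose WT libraries overlapped. *Tek* at 0.290 and *Cd34* at 0.277 RPKM overlapped as well and lay below *Kdr* in both WT libraries. *Tie1* (0.185), *Flt1* (0.177), *Pecam1* (0.129) and *Emcn* (0.125 RPKM) followed, each overlapping the next. In *Patz1* KO MNs *Srgn* was at 0.389 RPKM and *Kdr* at 0.277, *Srgn* with 0.263 and 0.516 and *Kdr* with 0.329 and 0.224 in the 2 libraries, so that the pair overlapped. The 9 genes other than *Srgn* summed to 15.0 and 17.0 CPM in WT and 7.71 and 5.54 CPM in *Patz1* KO. *Srgn* alone was at 1.29 and 1.24 times that sum in WT and at 0.0749 and 0.204 times in *Patz1* KO. Its drop was thus larger than that of the summed markers in both KO libraries, but *Srgn* was chosen by that drop.

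Marker lists of endoderm and of mesenchyme were lower in *Patz1* KO, and the MN list was higher. The counts below stand beside 23.8% of all 14269 genes tested called lower and 24.1% called higher. These lists, like the other gene lists below, were chosen with earlier results of these libraries known. Their shares are therefore a description and not an independent test. Of 10 endoderm genes, 8 had enough counts. In *Patz1* KO 7 of these were lower and 0 higher by edgeR's quasi-likelihood test with an adjusted p under 0.05. *Afp* was the tested gene that was not called (log2 fold change -0.04, SE 0.49). The summed level of the list was 80.0 to 88.9 CPM in WT and 11.3 to 12.7 CPM in *Patz1* KO. *Foxa2* made the largest part of that sum, with group means of 28.2 CPM in WT and 5.56 CPM in *Patz1* KO. How much of the fall came from endoderm cells was not tested. Of 10 mesenchyme and mural genes, all tested, 9 were lower and 0 higher, and the sum went from 213 to 234 CPM in WT to 41.0 to 48.3 CPM in *Patz1* KO. Of the 10 MN genes 7 were higher and 0 lower by the same test. The pluripotency list gave 1 lower gene of 4 tested, *Dppa5a*, which was not called by DESeq2's Wald test or without either WT library. *Fgf4* and *Utf1* were at 0 in all libraries, and *Pou5f1* had 3 to 7 counts. Of the genes called lower in these lists, *Ttr*, *Gata4*, *Fgb*, *Prrx1* and *Dppa5a* passed the filter on low counts through their WT libraries only. For such genes the filter favours a lower call over a higher one. The part of these lists in the values of *Srgn* and the endothelial genes was not tested.

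**Figure D3:**
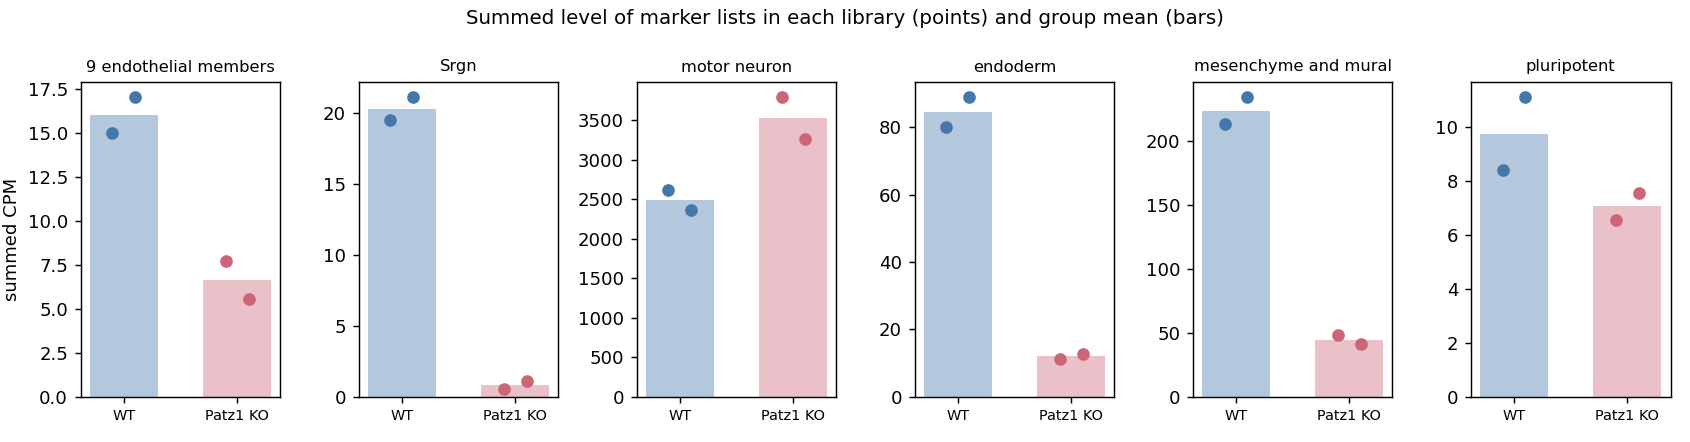
Summed level in CPM (y axis, linear from 0, a separate scale for each panel) of the 9 endothelial genes, of *Srgn*, and of lists of 10 genes each for MNs, endoderm, mesenchyme with mural cells, and pluripotent cells. Points are libraries and bars group means; the endothelial, *Srgn*, endoderm and mesenchyme panels are lower in *Patz1* KO, and the MN panel is higher.

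The genes whose 4 values ran most like those of *Srgn* were looked up among the well-counted genes only. Likeness was measured as the distance between log2 CPM values over the 4 libraries after each gene's mean was taken away, among genes with a mean of at least 100 counts, a limit that leaves out most endothelial and blood genes. The 5 nearest were *Cldn6* (distance 0.775), a claudin of embryonic epithelia, *Pdgfra* (0.791), a receptor of mesenchyme and primitive endoderm, *Rbp4* (0.873), the plasma retinol carrier, *Vtn* (0.889), which encodes vitronectin, and *Fgb* (1.02), which encodes a fibrinogen chain. Their log2 fold changes went from -4.62 to -3.90. With 2 groups of 2 libraries, genes with a like difference between the groups lie close by construction.

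Of the cargo that serglycin stores in blood cells, little was counted beside it. Of 15 genes for granule proteins, 9 had no count in any library, among them *Cpa3*, *Mcpt4*, *Gzmb* and *Hdc*, and 13 had at most 3 counts in each. The exceptions were *Plat*, tissue plasminogen activator, which neurons make too (134 CPM in WT and 122 CPM in *Patz1* KO, log2 fold change -0.14, SE 0.091), and *Prtn3*, whose exons overlap the antisense gene *Plppr3* (3.27 and 5.07 CPM). Neither passed an adjusted p of 0.05 in edgeR's quasi-likelihood test (0.221 and 0.0517), although *Prtn3* did so under 7 of 10 alternatives. Of 28 other proteoglycan core protein genes, 25 were tested, of which 11 fell and 9 rose by that test, beside 23.8% and 24.1% of all genes. Among those that fell, *Lum* passed the filter on low counts through its WT libraries only. *Gpc3*, a glypican (229 to 60.2 CPM, log2 fold change -1.93), *Vcan*, versican (383 to 115 CPM, -1.73), and *Dcn*, decorin (18.2 to 3.59 CPM, -2.32), fell, while *Spock3*, a testican of brain, rose (25.5 to 58.5 CPM, 1.20).

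A wider list of 58 endothelial genes outside the set went both ways. Of these 43 were tested, 16 were lower, 8 were higher and 19 did not pass an adjusted p of 0.05 in edgeR's quasi-likelihood test, with a median log2 fold change of -0.27. The share lower is to be read against the 23.8% of all genes and the share higher against 24.1%. *Fli1*, *Foxc2*, *Sox17*, *Acvrl1*, *Ptprb*, *Cldn5*, *Plvap*, *Thbd* and *Procr*, all called lower, passed the filter on low counts through their WT libraries only. The 8 genes called higher had both WT libraries above it as well. Part of the share lower thus rests on genes that entered by their WT level alone. The count of lower genes was 7 with DESeq2's Wald test, 7 when every library needed 10 counts, and 8 without WT replicate 1. Levels were low, with 44 of the 58 genes at no more than 10 CPM in both groups.

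Of 16 transcription factor genes of the endothelium, 14 were tested, 5 fell and 3 rose. *Foxc2*, a forkhead factor of mesenchyme and lymphatic vessels, had 53 and 64 counts in WT but 4 and 1 in the KO. Its log2 fold change was -4.89 (SE 0.47, adjusted p = 2.07e-07 by edgeR's quasi-likelihood test). *Ets1*, an ETS factor, went from 24.6 ± 1.34 to 9.95 ± 0.504 CPM (SD, n = 2 each), and *Hey1*, a Notch target, from 81.9 ± 1.36 to 39.6 ± 1.88 CPM. *Fli1*, the ETS factor that follows *Etv2*, fell from 13 and 29 counts to 4 and 3 (log2 fold change -2.94, SE 0.58, adjusted p = 0.000461 by the same edgeR test), and *Sox17*, which overlaps the antisense gene *Gm37587*, fell by 2.50 on the log2 scale. *Tal1* went the other way, with 17 and 26 counts in WT but 211 and 130 in the KO, or 1.14 and 1.63 to 8.70 and 7.75 CPM (log2 fold change 2.56, SE 0.26, adjusted p = 3.01e-07 by the same edgeR test). Its partner *Lmo2* rose from 4.05 ± 0.410 to 7.53 ± 0.369 CPM (SD, n = 2 each; 0.90). *Tal1* and *Lmo2* serve blood and endothelium, and *Tal1* is also made by the V2b interneurons of the ventral spinal cord. *Gata2* of the same list showed no detectable difference, at 2.12 CPM in WT and 2.52 CPM in *Patz1* KO (0.28, SE 0.31). Which cells gave the reads of the genes that fell or rose was not tested. *Fli1*, *Sox17*, *Lmo2* and *Gata2* were named after their values were seen.

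Ligand and receptor genes were found on both sides. Of 19 receptor and ligand genes outside the set, 16 were tested, 6 fell and 3 rose. *Vegfa*, the ligand of *Kdr* and *Flt1*, had 31.5 and 34.1 CPM in WT against 68.6 and 91.5 CPM in the KO, and its log2 fold change was 1.28 (SE 0.12, adjusted p = 1.78e-07 by edgeR's quasi-likelihood test). Both KO libraries lay above both WT libraries, the opposite side from *Kdr* and *Flt1*. *Apln*, the peptide ligand apelin, rose from 5.73 ± 0.608 to 18.2 ± 1.48 CPM (SD, n = 2 each; log2 fold change 1.66). *Acvrl1*, a BMP receptor of vessels that overlaps the antisense gene *Gm16031*, had 11 and 24 counts in WT against 6 and 5 in the KO (-2.05), and *Ramp2*, a subunit of the adrenomedullin receptor whose exons overlap *Vps25*, went from 3.04 ± 0.319 to 1.37 ± 0.422 CPM (SD, n = 2 each; -1.19). Both were lost with DESeq2's Wald test and without WT replicate 2. *Angpt1*, the ligand of *Tek*, whose exons overlap the antisense gene *Gm17473*, was lower by less than these, at 26.2 ± 0.933 against 20.4 ± 0.881 CPM (SD, n = 2 each; -0.36, SE 0.11), and was named after its values were seen.

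Of 23 surface and junction genes, 13 were tested, 5 fell and 2 rose. *Cldn5*, the claudin of endothelial tight junctions, had 30 and 38 counts in WT against 9 and 4 in the KO (log2 fold change -2.78, SE 0.44, adjusted p = 4.80e-05 by edgeR's quasi-likelihood test). *Thbd*, thrombomodulin, had 29 and 15 counts against 2 and 7 (-2.65), and was not called without WT replicate 1. The 2 genes that rose were *Mcam* and *Egfl7*. *Mcam*, an adhesion molecule whose exons overlap the antisense gene *Gm10687*, went from 24.2 ± 0.199 to 83.8 ± 4.89 CPM (SD, n = 2 each; 1.79). *Egfl7*, a secreted vessel protein whose gene also holds *Mir126a* and overlaps *Agpat2* on the other strand, went from 4.54 ± 0.0261 to 16.1 ± 0.537 CPM (SD, n = 2 each; 1.83).

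Most blood genes were barely counted in either genotype. Of 42 listed, 40 were in the files, 9 had no count in any library and 18 had at most 3 counts in each library, among them *Ptprc* (CD45), *Gata1* and *Tyrobp*. The adult alpha globin genes *Hba-a1* and *Hba-a2* had no count, and the embryonic *Hbb-bh1* had 10 and 7 counts in WT against 1 and 12 in the KO. Of the 15 tested, 3 were lower (*Myb*, *Gfi1* and *Kit*), 1 was higher (*Coro1a*) and 11 did not pass an adjusted p of 0.05 in edgeR's quasi-likelihood test, with a median log2 fold change of -0.33. Over all genes tested 23.8% were called lower and 24.1% higher, so the share of blood genes called lower was near that of all genes. The share of blood genes called higher, 1 of 15, was below that of all genes. *Myb*, which cycling progenitors of many tissues use and which overlaps the antisense gene *Gm26577*, went from 78 and 89 counts to 43 and 38 (-1.44). *Gfi1*, a zinc finger repressor that overlaps an antisense gene, had 10 and 11 counts in WT against 0 and 2 in the KO. It passed the filter on low counts through its WT libraries only. *Kit* had 15.5 ± 0.431 and 11.1 ± 0.410 CPM (SD, n = 2 each; -0.49), and *Coro1a*, a coronin that neurons make too and that overlaps *Bola2*, 20.9 ± 2.80 and 27.3 ± 1.63 CPM (0.39). *Coro1a* and *Kit* were not called with DESeq2's Wald test or without WT replicate 2.

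**Figure D4:**
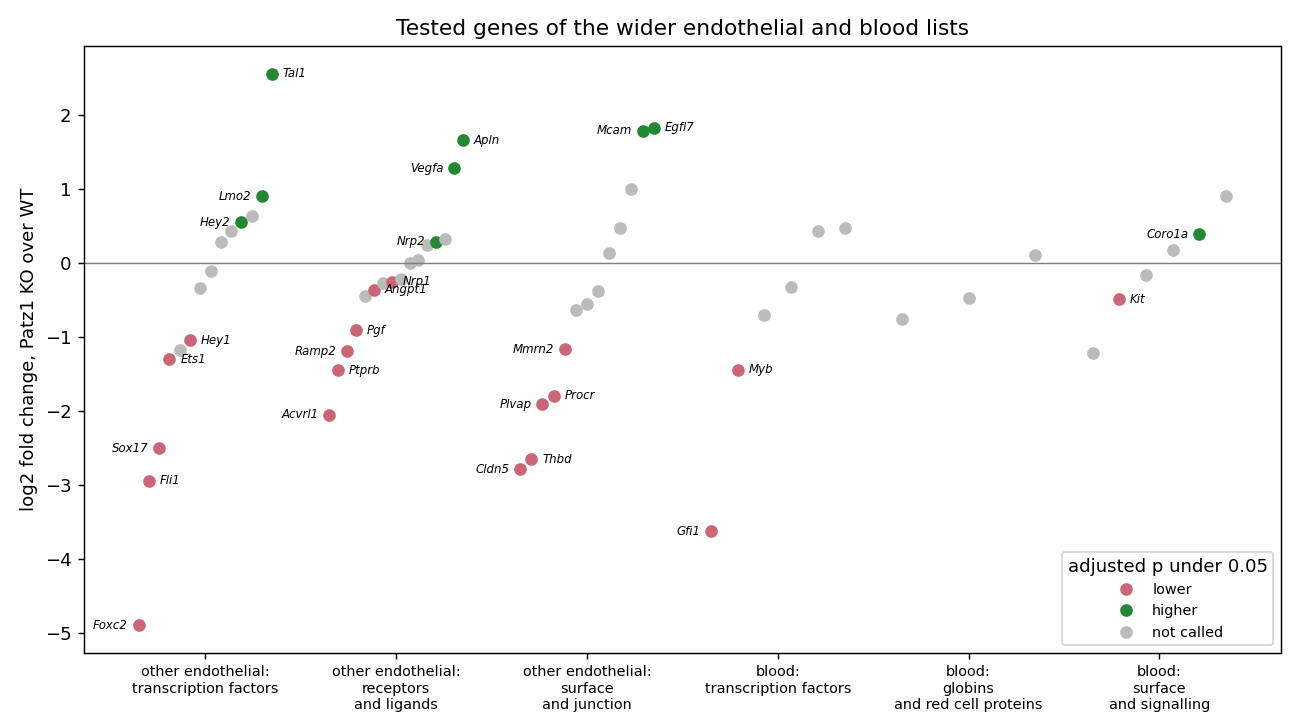
Log2 fold change of *Patz1* KO over WT (y axis) for each tested gene of the endothelial lists outside the set and of the blood lists (columns), sorted within a list. Colours show an adjusted p below 0.05 in edgeR's quasi-likelihood test; 16 endothelial genes are lower and 8 higher, with *Foxc2* at -4.89 and *Tal1* at 2.56 as the extremes.

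The study asks how boundaries part neighbouring genes, so each gene of the set was set beside the nearest tested gene on either side. The 20 neighbours, none of them in the set, held 9 that were lower, 1 that was higher and 10 that did not pass an adjusted p of 0.05 in edgeR's quasi-likelihood test, beside 23.8% lower and 24.1% higher over all genes. Their median log2 fold change was -0.2, against -0.00137 over all genes tested. Their median absolute log2 fold change was 0.28, against 0.34 over all genes tested. *Srgn* lies between *Vps26a*, 7027 bases before it, and *Ddx21*, 52799 bases after it, which had log2 fold changes of -0.29 (SE 0.086) and -0.62 (SE 0.087). Both were smaller in size than the -4.64 of *Srgn*. Since *Srgn* was chosen by its drop, nothing is read from that difference. *Cdh5*, at -2.44, lies between *Cdh11*, which rose by 0.28, and *Bean1* at 0.52 (SE 0.25), which did not pass. The neighbours of *Tek* (*Ift74* and *Mysm1*) and of *Tie1* (*Cdc20* and *Ebna1bp2*) fell by 0.24 to 0.56 on the log2 scale.

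*Kdr* belongs to a row of 3 related receptor genes on chromosome 5, with *Pdgfra* (75152292 to 75198215) and *Kit* (75574916 to 75656722) before it. *Pdgfra*, whose exons overlap *Mir7025* and antisense genes, had 463 and 626 counts in WT against 46 and 46 in the KO, or 35.2 ± 5.86 against 2.32 ± 0.597 CPM (SD, n = 2 each). Its log2 fold change was -3.96 (SE 0.18). *Kit* in the middle stood at -0.49 (SE 0.14) and *Kdr* at -1.03 (SE 0.25), so the 3 genes of the row differed in size of change, by less in the middle than at either end. That difference between the genes was not tested.

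**Figure D5:**
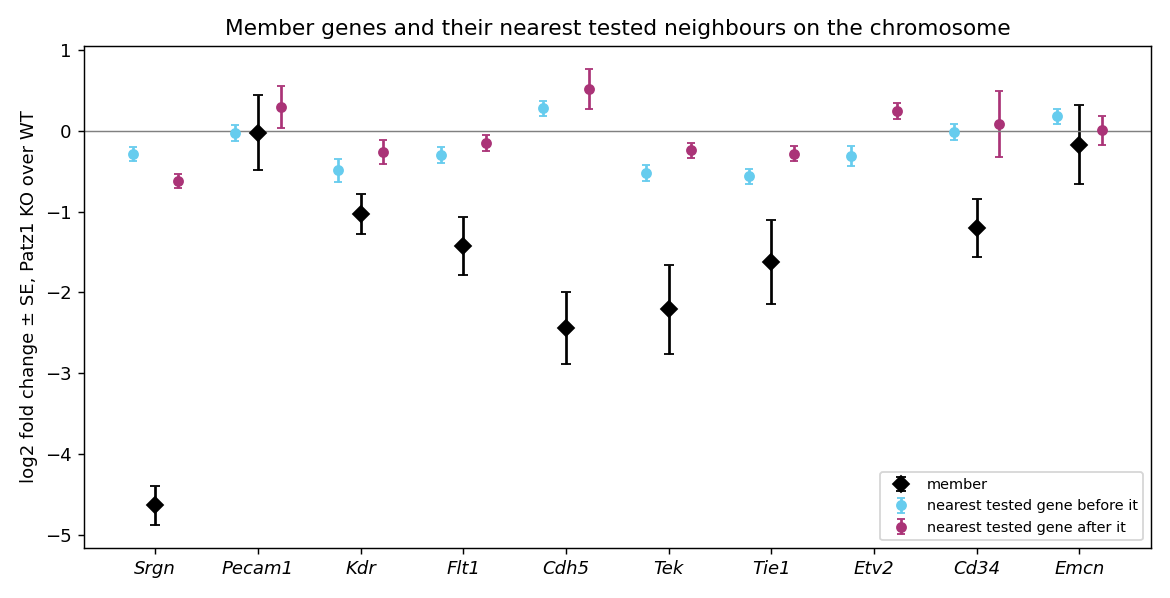
Log2 fold change of *Patz1* KO over WT with its SE (y axis) for each gene of the set (diamonds) and for the nearest tested gene before and after it on the chromosome (circles). The neighbours lie between -0.62 and 0.52, while *Srgn*, *Cdh5*, *Tek*, *Tie1* and *Flt1* lie at -1.43 or lower; *Etv2* was not tested and has neighbours only.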

How the data were processed

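The labels name 2 WT and 2 *Patz1* KO libraries of cervical MNs, made from total RNA with stranded ribosomal-RNA-depleted kits. The authors deposited raw counts per gene symbol, mapped to mm10. The submitters' processing notes name TopHat2 2.1.1, Bowtie2 2.3.1, featureCounts 1.6.2 and DESeq2; annotation and strand setting are not given in the sources used here.

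Counts were scaled with TMM and filtered with filterByExpr (minimum count 10), which left 14269 of 23420 genes. Genes were tested with edgeR's quasi-likelihood test (edgeR 4.0.16, limma 3.58.1, R 4.3.3) across all genes with Benjamini-Hochberg adjustment and a threshold of 0.05; SE was taken as the size of the log2 fold change over the root of its F statistic. The common biological coefficient of variation was 7.71%. The rest was computed with Python 3.11.15, numpy 2.4.6, pandas 2.3.3 and matplotlib 3.10.9.

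Exon lengths, positions and overlaps come from GENCODE M21 on GRCm38, neighbours by matching symbols, and promoters from RefSeq. Listed symbols absent from the files were looked up through RefSeq synonyms. The members and lists were chosen with earlier results of these data known. Named were the members, *Patz1*, up to 4 genes per list with the smallest p, the neighbours and the 5 genes nearest to *Srgn*; others are said to be chosen later. The alternatives were other scalings, filters, DESeq2 1.42.0, a replicate block and leaving out each library.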

Additional observations from a re-analysis of the deposited data

How the results depend on the processing

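The log2 fold changes of *Srgn*, *Kdr*, *Flt1*, *Cdh5*, *Tek*, *Tie1* and *Cd34* kept their sign under every alternative that gave a value, and *Pecam1* and *Emcn* did not. DESeq2's size factors and library size alone put the median log2 fold change of all genes at 0.00908 and -0.0298, shifts too small to turn the sign of a called gene. Leaving out a library leaves 1 library in an arm, which is then assumed to vary like the others; the counts then went from 2346 to 3985 for all genes called higher and from 2175 (without WT replicate 2) to 3831 for those called lower, from 6 to 9 and from 8 (without WT replicate 1) to 14 for the other endothelial genes called higher and lower, and from 0 (without WT replicate 2) to 2 and from 2 to 5 (without *Patz1* KO replicate 1) for the blood genes. The 16 other endothelial genes called lower became 7 with at least 10 counts in every library, where 29 genes were tested, and 7 with DESeq2's Wald test; for the latter the cause was not tested. The 1 blood gene called higher became 2 without the filter on low counts, where 31 were tested, and 0 with DESeq2's Wald test. The deviations of same-numbered libraries from their group means correlated at 0.0304. With 2 libraries per group this cannot settle whether replicate numbers paired the samples. With the replicate block 3712 genes were called higher and 3651 lower, 9 and 17 of the other endothelial genes and 1 and 4 of the blood genes. Depth limits *Etv2*, *Tek*, *Tie1* and most blood genes, which had few or no counts.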
